A study of Mus musculus with 4 samples.

Results

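The 9 genes Foxo1, Foxo3, Tsc1, Tsc2, Akt1, Akt2, Irs1, Irs2 and Pik3ip1 belong to the insulin and PI3K pathway that holds or releases dormant ovarian follicles. They were taken by symbol from the 32285 genes counted in single cells of the mouse ovary, and all 9 were found. A list of 59 further pathway genes, chosen alongside them, was read beside them, and all 59 were in the files.

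The study made 4 libraries, 1 per group, and each pooled a single ovary from each of 5 mice. The control mice received vehicle. The doxorubicin mice received the chemotherapy drug doxorubicin at 3 mg/kg, the doxorubicin+AMH mice received it with recombinant human AMH (anti-Müllerian hormone, made by granulosa cells of growing follicles) at 0.75 mg/kg, and the AMH mice received AMH at 0.75 mg/kg alone. Per the labels and the series design, mice of postnatal day 25 were given 2 weekly doses and ovaries were taken 4 hours after the second. Strain and route are not given in the sources used here. With 1 pooled library per group, neither animals nor library preparations were replicated. No test between groups is therefore possible, and every difference below compares libraries. Values in runs of 4 begin with control, continue with doxorubicin and doxorubicin+AMH, and end with AMH.

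In this pathway, the adaptors IRS1 and IRS2 pass the signal of the insulin and IGF1 receptors to PI3K, the KIT receptor engages PI3K directly, and the lipid that PI3K makes recruits the kinases AKT1 and AKT2. AKT phosphorylates the transcription factors FOXO1 and FOXO3, which then leave the nucleus, and it restrains the TSC1 and TSC2 complex, the brake on mTOR. Loss of FOXO3, TSC1 or TSC2 in mouse oocytes is known to set dormant follicles growing. FOXO1 is the FOXO factor best known in granulosa cells, where it opposes growth and differentiation. The protein state on which this signalling rests was not measured. Transcript counts say nothing of phosphorylation or of where a FOXO protein sits.

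A level below is CPM, the count of a gene per 1000000 UMIs, with UMIs (tags that mark single captured transcript molecules) summed over the cells of a class in a library. Differences between libraries are log2 ratios of CPM with exact 95% intervals that cover counting error only. A gene was counted as past the fold where the log2 ratio reached 0.5 in the same direction in both library pairs of a contrast. The doxorubicin pairs were doxorubicin / control and doxorubicin+AMH / AMH. The AMH pairs were AMH / control and doxorubicin+AMH / doxorubicin. The pairs within a contrast share no library, but the contrasts share all 4 libraries. Genes entered where their average over the libraries of a class reached 10 CPM. Library totals ran from 138647495 to 178279122 UMIs over 7141 to 9478 deposited cells. Pairs of libraries shared 11 to 24 cell barcodes.

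Cells were clustered and named by marker lists, with "-like" for a rebuilt name. The 7 classes compared were stroma-like cells (9837 cells), granulosa-like cells (9634), theca-like cells (3055), macrophage-like cells (556), blood endothelial-like cells (438), mural smooth muscle-like cells (331), and clusters led by the smooth muscle genes Myh11 and Acta2 (3079), which also met the stroma list and were left unnamed. Granulosa-like cells had all 10 granulosa markers, including Fshr and Amhr2, in every library, at a summed 5376, 5138, 7270 and 5933 CPM. Within them the clusters were gated on preset genes into subsets marked by Shroom3 and Kcnq5, by Slc38a5, by Gatm and Kctd14, by Inhba and Nppc, by the proliferation genes Top2a and Mki67, and a low-UMI subset. A cluster of 183 granulosa-like cells that met no gate, and a small cluster of the Gatm and Kctd14 subset, were nearly all of the doxorubicin library (180 of 183 and 80 of 84 cells).

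The oocyte, the cell in which FOXO3 and the TSC complex are best known as brakes on follicle growth, formed no cluster. Only 33 cells had at least 3 of 8 oocyte markers, and 12 of them had at least 5. These 12 cells were 2, 4, 0 and 6 in the libraries, so no comparison between libraries was made in them. Pooled, the 12 cells held Foxo3 at 118.5 CPM (95% interval 101 to 138) and Tsc2 at 38.8 CPM, the latter from 69.2 CPM in the control, 18.2 CPM in the doxorubicin and 34.2 CPM in the AMH cells. Foxo1 stood at 333 CPM pooled, but at 177 CPM in the control, 141 CPM in the doxorubicin and 527 CPM in the AMH cells, so the AMH library decided the pooled value. Everything that follows concerns somatic cells.

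The transcription factor genes come first. Foxo1 (chr3:52268336-52353221, plus strand, GRCm38) stood at 778, 647, 818 and 860.0 CPM in granulosa-like cells, its highest class. The Myh11- and Acta2-led cells followed at 303, 371, 311 and 262 CPM, and no library of either class overlapped the other. Blood endothelial-like cells had 146 to 181 CPM and stroma-like cells 126 to 139 CPM, again without overlap between them. Theca-like, mural smooth muscle-like and macrophage-like cells had 37.8 to 124 CPM and overlapped one another. Thinned to 2000 UMIs a cell, 66.3%, 59.2%, 72.4% and 72.8% of granulosa-like cells had a Foxo1 UMI (unthinned 93.9%, 88.2%, 94.4% and 93.1%). In erythroid-like cells, which should lack most ovarian transcripts, the thinned share was 6.52%, 1.85%, 11.7% and 16.1%, so the granulosa share lay above this background. Median depth before thinning was 16307 to 22445 UMIs in granulosa-like and 3928 to 6553 UMIs in erythroid-like cells.

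Foxo3 (chr10:42181841-42276755, minus strand) was more even. Granulosa-like cells held 122, 119, 111 and 122 CPM, above every library of the other classes compared. Surface epithelial-like cells, not ranked (34 to 106 cells a library), held 103, 153, 75.5 and 54.0 CPM. Macrophage-like cells held 82.9, 100.005, 59.5 and 80.1 CPM, theca-like cells 74.4, 93.9, 44.9 and 62.4 CPM, and blood endothelial-like cells the least, 35.9, 44.1, 40.9 and 56.1 CPM. The classes between the highest and the lowest all overlapped their neighbours.

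Pik3ip1 (chr11:3330401-3342971, plus strand), whose protein binds PI3K and inhibits it, followed the order of Foxo1 at the top. It stood at 73.3, 62.8, 54.3 and 70.5 CPM in granulosa-like cells and at 37.6, 39.0, 33.7 and 35.4 CPM in the Myh11- and Acta2-led cells, with no overlap. Theca-like cells had 4.02, 5.68, 6.65 and 9.61 CPM, below the 10 CPM mean required for a comparison. Across the 28 points made by 7 classes in 4 libraries, the Foxo1 and Pik3ip1 levels had a Pearson r of 0.91. The points of a class share cell type and the points of a library share depth, so this r describes the pattern only. The other 7 members had r of −0.42 to 0.43 with Foxo1.

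The brakes on mTOR come next. Tsc1 (chr2:28641228-28691167, plus strand), the stabilising partner of the complex, held 30.5, 27.8, 26.4 and 29.8 CPM in granulosa-like cells, and theca-like cells overlapped them at 21.5, 22.5, 24.6 and 29.5 CPM. Tsc2 (chr17:24595816-24632630, minus strand), the subunit that switches off RHEB, held 13.9, 13.1, 13.0 and 12.9 CPM in granulosa-like cells. Its highest classes were mural smooth muscle-like, blood endothelial-like and Myh11- and Acta2-led cells, which overlapped at 15.6 to 26.7 CPM. Theca-like cells were lowest for Tsc2, at 9.94 to 12.0 CPM, and did not overlap granulosa-like cells.

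The adaptors and kinases ranked highest elsewhere. Irs1 (chr1:82233101-82291416, minus strand) was highest in theca-like cells at 153, 147, 82.1 and 80.9 CPM, and the libraries without AMH held the 2 high values. The Myh11- and Acta2-led cells overlapped that range at 111, 94.2, 97.3 and 102 CPM, and granulosa-like cells held 71.9, 66.1, 62.9 and 81.9 CPM. Macrophage-like and blood endothelial-like cells had 2.99 to 22.2 CPM of Irs1. Irs2 (chr8:10984681-11008458, minus strand) had another order, with mural smooth muscle-like (127, 132, 98.8 and 147 CPM), granulosa-like (109, 97.1, 95.3 and 118 CPM) and stroma-like cells (107, 99.3, 90.5 and 88.3 CPM) overlapping at the top. Theca-like cells had 54.0, 59.0, 68.4 and 60.1 CPM of Irs2.

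Akt1 (chr12:112653821-112674884, minus strand) held 79.98, 87.4, 61.8 and 83.6 CPM in blood endothelial-like cells, its highest class by mean among those compared, and 91.2, 101, 62.8 and 52.9 CPM in theca-like cells, which overlapped them. Lymphatic endothelial-like cells, not ranked (40 to 78 cells a library), held 82.7, 65.3, 83.0 and 92.1 CPM of Akt1. Granulosa-like cells were the lowest class compared for Akt1 by mean, at 42.7, 49.8, 39.8 and 45.8 CPM. Akt2 (chr7:27591552-27640826, plus strand), the AKT gene best known for insulin-regulated metabolism, was highest in theca-like cells at 68.7, 68.8, 47.3 and 46.7 CPM. Stroma-like cells came next for Akt2 at 45.9, 42.5, 38.9 and 41.3 CPM, and neither theca-like nor granulosa-like cells (38.6, 36.3, 34.1 and 35.7 CPM) overlapped them. Levels are not compared between genes here. Foxo1, Tsc2, Irs1, Irs2 and Pik3ip1 overlap an exon of a gene on the other strand (for Tsc2 it is Pkd1). Whether counting used strand is not given in the sources used here, and such reads cannot then be told apart.

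Akt1, Akt2 and Irs1 are the members lower by at least 0.5 log2 units in both AMH pairs of theca-like cells, so the 250 bases before a RefSeq start of each are shown (GRCm38.p6, 5′ to 3′ on the gene's strand), with a FOXO core motif in capitals. The windows are chr12:112674885-112675134 for Akt1, chr7:27591302-27591551 for Akt2 and chr1:82291440-82291689 for Irs1.
Akt1: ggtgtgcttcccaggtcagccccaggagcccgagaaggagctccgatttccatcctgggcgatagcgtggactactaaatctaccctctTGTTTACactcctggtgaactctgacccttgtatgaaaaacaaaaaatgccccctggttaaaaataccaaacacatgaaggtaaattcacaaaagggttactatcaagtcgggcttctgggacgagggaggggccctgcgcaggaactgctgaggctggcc
Akt2: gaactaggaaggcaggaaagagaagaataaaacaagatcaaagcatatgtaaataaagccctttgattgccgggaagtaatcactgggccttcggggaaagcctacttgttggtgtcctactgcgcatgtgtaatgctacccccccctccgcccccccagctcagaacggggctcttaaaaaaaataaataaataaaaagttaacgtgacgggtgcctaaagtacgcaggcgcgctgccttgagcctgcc
Irs1: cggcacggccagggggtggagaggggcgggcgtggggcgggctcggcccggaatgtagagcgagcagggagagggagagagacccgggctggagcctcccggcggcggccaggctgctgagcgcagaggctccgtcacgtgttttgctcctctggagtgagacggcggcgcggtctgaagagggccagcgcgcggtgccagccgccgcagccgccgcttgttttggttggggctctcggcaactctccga
The FOXO letters TGTTTAC, searched on both strands, occurred once, 161 bases before the Akt1 start. They occurred in 1040 of 32851 promoter windows of this length (3.17%), and in 1 of the 13 windows of the 9 members. The GC-rich letters GGCGCC, a motif of the SMAD1 and SMAD5 proteins that act below AMH receptors and the same on both strands, occurred in none of these 3 windows. They were in 3 of the 13 member windows, at other starts of Akt1 and Akt2 and at Irs2, against 9.59% of all windows. A match of letters is a description of the window and not a bound site.

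**Figure D1:**
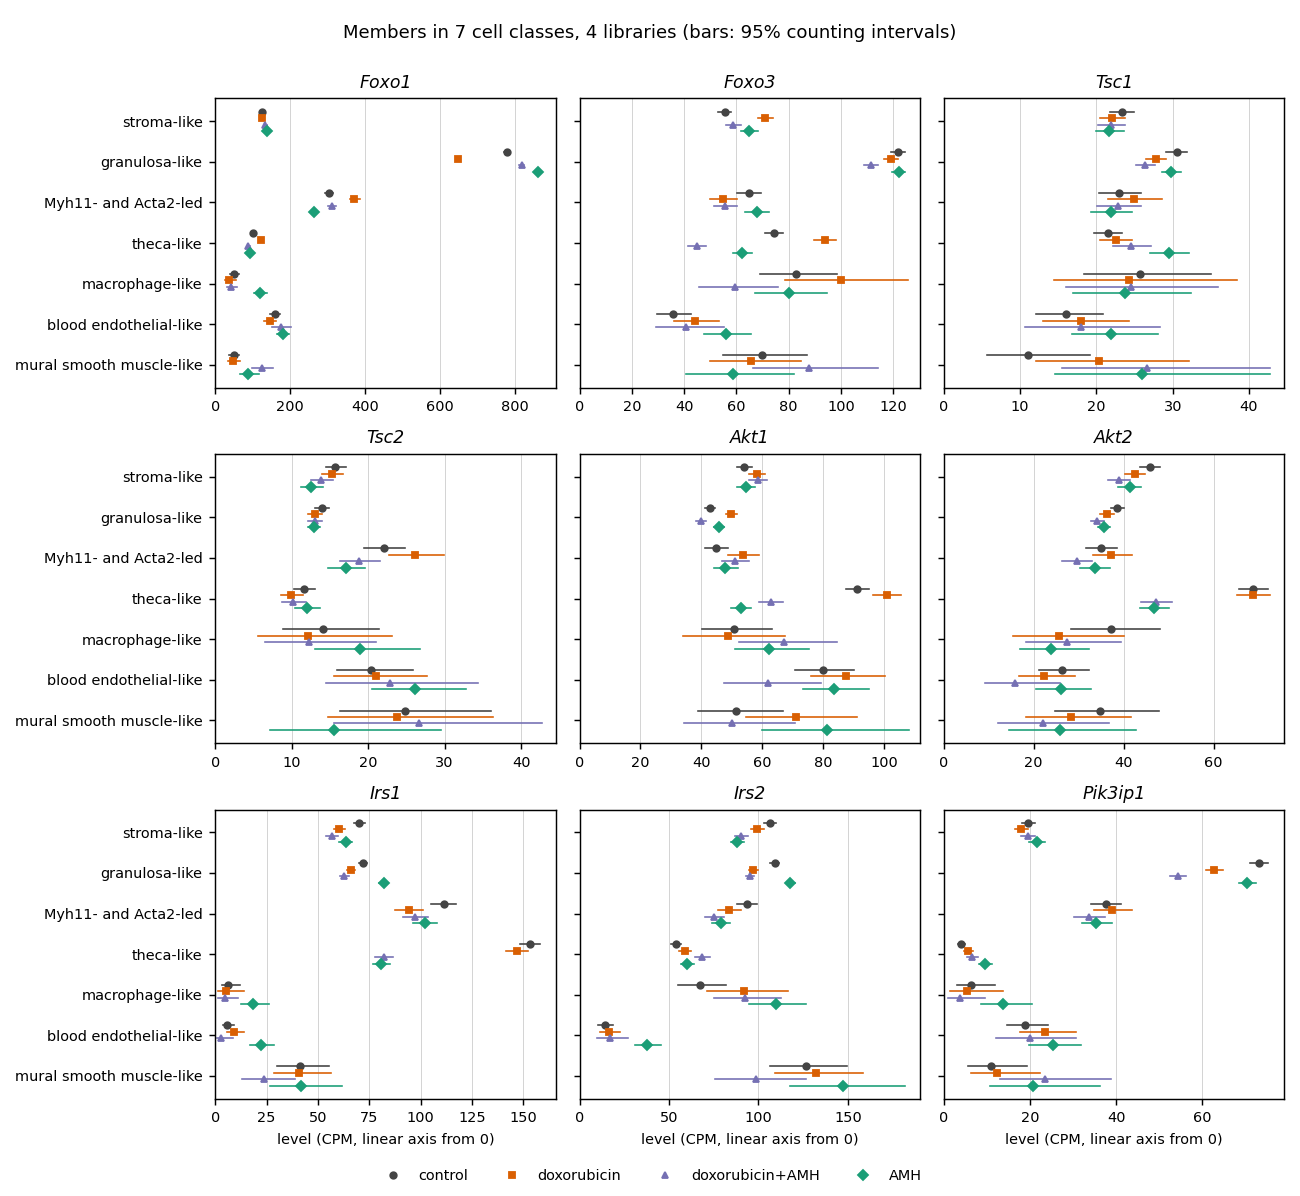
Level of each of the 9 genes (CPM, linear axis from 0) in 7 cell classes, with 1 point per library and bars for the 95% counting interval. Foxo1 and Pik3ip1 are highest in granulosa-like cells with no overlap with the next class, and in theca-like cells Akt1, Akt2 and Irs1 split into 2 libraries without AMH (high) and 2 with AMH (low).

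By a fixed measure of likeness, the Pearson r of log2(CPM + 5) over the same 28 points among 9739 genes, Foxo1 was most like Akr1c14 (0.95), Tshz1 (0.94) and Mboat2 (0.93). Pik3ip1 was most like Shroom3 (0.93), Prss23 (0.92) and Tram2 (0.91), and Irs1 was most like Plod2 (0.96), Gstm5 (0.94) and Casc4 (0.94). Akt1 was most like Tle3 (0.79), Iqsec1 (0.78) and Lifr (0.76), and Akt2 was most like Mt3 (0.89), Chka (0.89) and Rrs1 (0.88). Irs2 was most like Tcp11l1 and Lrp1 (each 0.89), and Tsc2 was most like Syne1 (0.90), Lims1 (0.88) and Mcam (0.87). Foxo3 was most like Pin4, Mrpl1 and Mta3 (each 0.82), and Tsc1 was most like Pex13 (0.79), Sgms2 (0.73) and Dusp12 (0.71).

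Within granulosa-like cells the subset marked by Shroom3 and Kcnq5 carried the highest levels of several members. This subset held 586, 459, 367 and 671 cells. Its Foxo1 level was 1089, 989.7, 1004 and 1002 CPM, above all libraries of the Inhba and Nppc subset, the next in order, at 865, 749, 912 and 894 CPM. Pik3ip1 separated the subsets most, with 184, 179.6, 166 and 155 CPM there and no more than 71.7 CPM in any library of another subset. Thinned to 2000 UMIs, 31.5%, 24.8%, 25.9% and 25.8% of these cells had a Pik3ip1 UMI, against 0% to 3.23% of erythroid-like cells.

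Irs2 showed the same separation at 190.3, 174, 173 and 180.4 CPM, with at most 113 CPM elsewhere. Akt1 was also highest there, at 54.4, 56.3, 53.8 and 62.4 CPM against 34.7 to 52.4 CPM in the other subsets. Irs1 was shared between this subset (98.8, 96.9, 93.7 and 109 CPM) and the low-UMI cells (99.5 to 126 CPM). Tsc1 likewise overlapped between these subsets, and Akt2, Foxo3 and Tsc2 overlapped between most subsets. The subset with high Foxo1 thus held the inhibitor Pik3ip1, both adaptors and Akt1 at high levels at once.

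The subset marked by Gatm and Kctd14 held 365, 405, 185 and 278 cells. It was lowest for 4 members, Foxo1 (333, 275, 542 and 646 CPM), Foxo3 (97.7, 90.2, 75.6 and 73.5 CPM), Irs1 (53.1, 39.0, 40.4 and 49.8 CPM) and Irs2 (56.5, 40.4, 49.6 and 60.7 CPM), by the mean of the libraries. The Inhba and Nppc subset was lowest for Pik3ip1 at 18.6, 17.3, 17.2 and 17.5 CPM. Proliferating Top2a and Mki67 cells held 724, 537, 750.4 and 824 CPM of Foxo1 and 33.1, 22.2, 23.8 and 28.8 CPM of Pik3ip1.

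**Figure D2:**
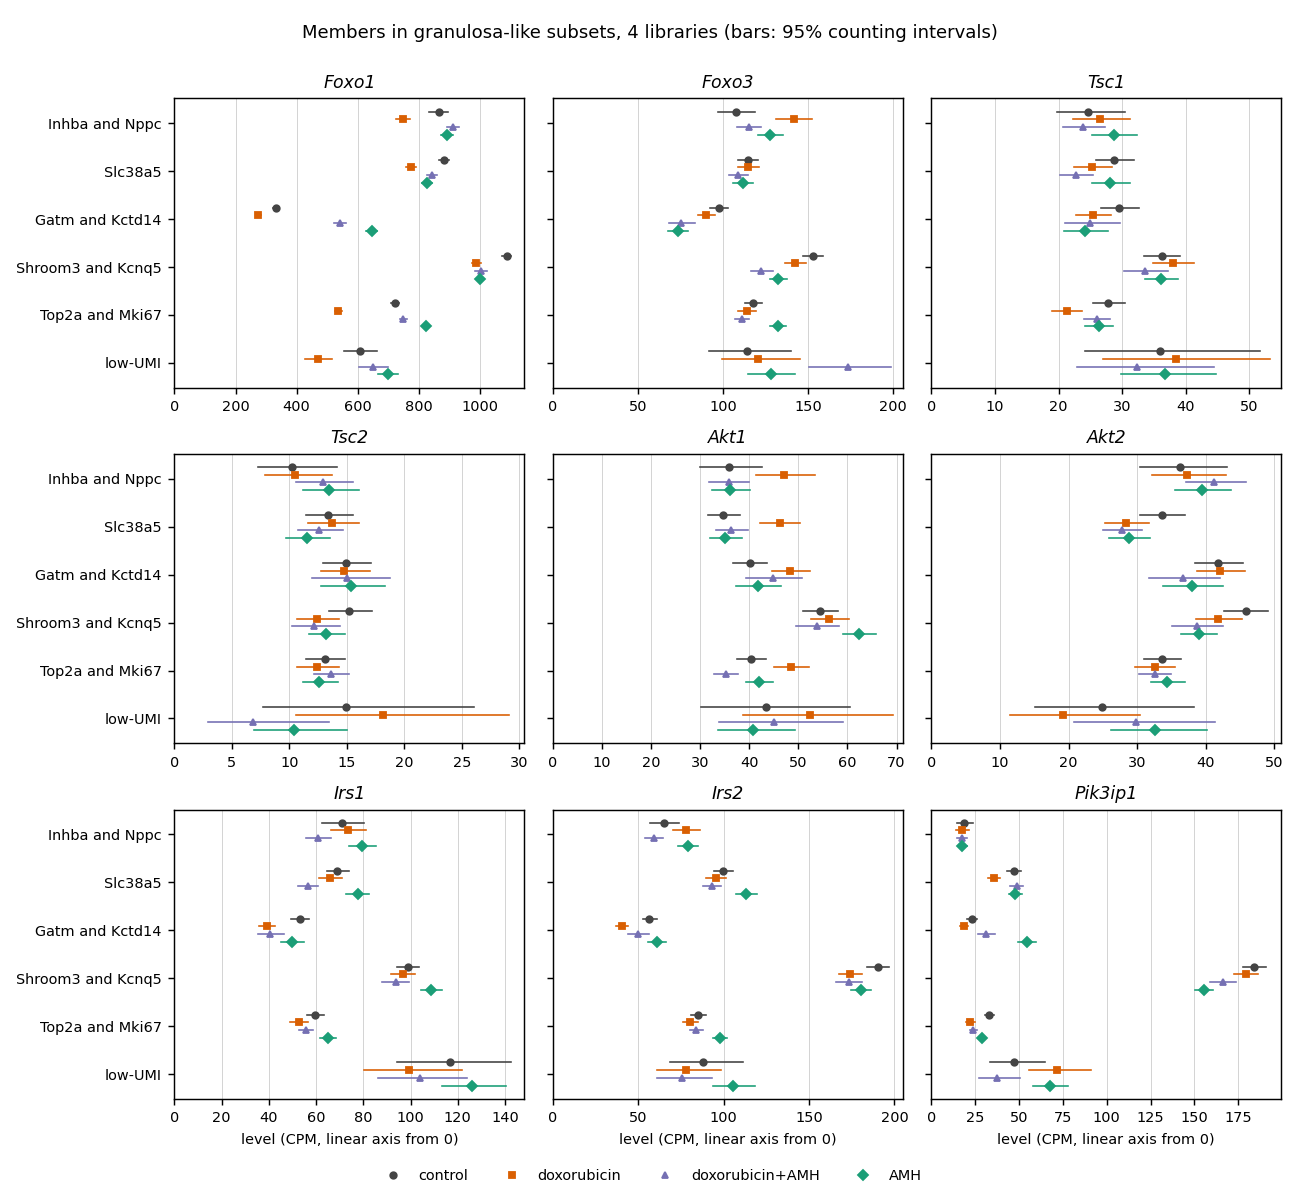
Level of each gene (CPM, linear axis from 0) in 6 granulosa-like subsets, with 1 point per library and bars for the 95% counting interval. Foxo1, Pik3ip1, Irs2 and Akt1 are highest in the Shroom3 and Kcnq5 subset, and Foxo1 in the Gatm and Kctd14 subset is low in the 2 libraries without AMH and higher in the 2 with AMH.

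Whether doxorubicin moved these genes was asked first in granulosa-like cells. None of the 9 members was past the fold in both doxorubicin pairs, where 0.158% of 8838 genes were. Differences were small. Of the 9 members, 7 lay below 0 in both pairs and none above, whereas 34.7% of all genes lay below 0 in both and 29.7% above. The members' median ratio was −0.12 in doxorubicin / control and −0.17 in doxorubicin+AMH / AMH, against −0.02 and 0.00 over all genes. With each cell weighted equally, the count fell to 5 of 9, since Foxo1 and Foxo3 were no longer below 0 in both pairs. Within the subsets the count ran from 1 of 9 in the Inhba and Nppc cells, where 20.8% of genes lay below 0 in both, to 7 of 9 in the proliferating cells, where 29.9% did. In the Inhba and Nppc cells, 7 of 9 members lay above 0 in doxorubicin / control, but their median ratio was only 0.05, against −0.0007 over all genes.

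Foxo1 was lower in the doxorubicin library than in control, with a log2 ratio of −0.27 (95% interval −0.28 to −0.25), and its ratio was −0.07 (−0.09 to −0.06) in doxorubicin+AMH / AMH. Without the clusters held nearly whole by the doxorubicin library, the first ratio was −0.23. The Foxo1 ratio in doxorubicin / control was below 0 in all 6 subsets, from −0.14 in the Shroom3 and Kcnq5 subset to −0.43 in proliferating cells. In doxorubicin+AMH / AMH it ran from −0.25 to 0.03. Pik3ip1 was lower in both pairs, by −0.22 (−0.29 to −0.16) and −0.38 (−0.44 to −0.31), in granulosa-like cells as a whole. By subset, doxorubicin / control ran from −0.58 (−0.78 to −0.38) in proliferating cells to 0.60 (0.01 to 1.22) in the low-UMI cells. In doxorubicin+AMH / AMH it ran from −0.85 (−1.36 to −0.37) in the low-UMI cells and −0.79 (−1.06 to −0.53) in the Gatm and Kctd14 subset to 0.10 (0.01 to 0.18) in the Shroom3 and Kcnq5 subset, where Pik3ip1 was highest. That subset made up 27.3%, 21.3%, 15.8% and 22.3% of granulosa-like cells, fewest in the library with the lowest class level of Pik3ip1, and its part in the class ratio was not tested.

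The adaptors gave ratios of −0.12 and −0.38 for Irs1, and −0.17 and −0.31 for Irs2. Akt1 lay on opposite sides in the pairs, at 0.22 (0.15 to 0.30) and −0.20 (−0.28 to −0.13), and Akt2 at −0.09 and −0.07. The mTOR brakes gave −0.13 and −0.17 for Tsc1, and −0.09 and 0.01 for Tsc2. Foxo3 stood at −0.03 and −0.13.

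AMH likewise left the members within the fold in granulosa-like cells as a whole. None of 9 was past it in both AMH pairs, where 2.87% of genes were. Foxo1 alone was above 0 in both (21.2% of genes were), at 0.14 (0.13 to 0.16) in AMH / control and 0.34 (0.32 to 0.36) in doxorubicin+AMH / doxorubicin. Of the 9 members, 4 were below 0 in both pairs, where 49% of all genes were. Pik3ip1 was −0.06 and −0.21, and Akt1 was 0.10 and −0.32.

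**Figure D3:**
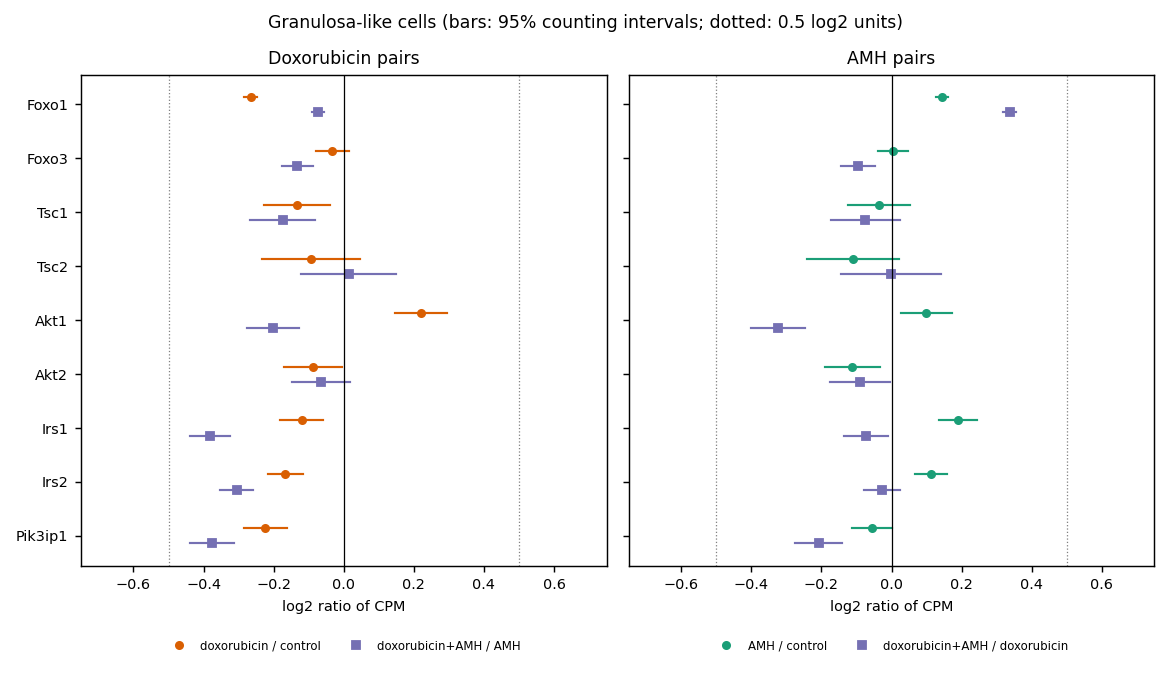
Log2 ratios of CPM in granulosa-like cells for the 9 genes in the doxorubicin pairs and the AMH pairs, with bars for the 95% counting interval and dotted lines at 0.5 log2 units. No gene reaches the lines in both pairs of a contrast, and 7 of 9 lie below 0 in both doxorubicin pairs.

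The wider pathway list gave the same picture of small differences in granulosa-like cells. Of 59 genes, 47 had a mean of 10 CPM or more. Past the fold in both doxorubicin pairs were 0 of 47, where 0.158% of all genes were. In both AMH pairs 1 of 47 was past it, where 2.87% of all genes were. It was Pik3cd, a catalytic PI3K subunit best known in leukocytes, with 24.9, 21.7, 13.2 and 17.4 CPM and ratios of −0.52 and −0.71. That call was lost under median-of-ratios scaling, under a pseudocount of 5 CPM and under a mean of at least 20 CPM.

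Mtor held 36.4, 33.9, 28.1 and 31.1 CPM, and Rheb, its activator, 154, 164, 167 and 149 CPM. Pik3r1, the main regulatory subunit, held 285, 226, 205 and 266 CPM, with ratios of −0.33 and −0.38 in the doxorubicin pairs. The median ratio of the list in the doxorubicin pairs was −0.03 and −0.10, against −0.02 and 0.00 over all genes.

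In single pairs, 4 of 47 genes were past the fold upward in AMH / control (1.39% of all genes were) and 1 of 47 downward (3.67%). In doxorubicin+AMH / doxorubicin 1 was past it upward (1.9%) and 3 downward (4.96%), in doxorubicin+AMH / AMH 0 upward (0.871%) and 3 downward (1.43%), and in doxorubicin / control 1 upward (0.453%) and 0 downward (0.362%). The 4 upward in AMH / control, named after their values were seen, were Bcl6 (39.3, 43.9, 47.2 and 64.9 CPM), the PI3K subunit gene Pik3r3 (29.9, 32.4, 31.8 and 45.8 CPM), the mTOR inhibitor gene Ddit4 (14.3, 20.9, 25.6 and 21.5 CPM) and Cited2 (296, 295, 290 and 429 CPM). For Bcl6, Pik3r3 and Cited2 the high value was in the AMH library alone. Their ratios in doxorubicin+AMH / doxorubicin were 0.10, −0.02 and −0.03. For Ddit4 the control library was the low one, with 0.55 in doxorubicin / control and 0.59 in AMH / control.

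The difference that the class as a whole did not show lay in the Gatm and Kctd14 subset. There 2 of 9 members, Foxo1 and Pik3ip1, were past the fold upward in both AMH pairs, where 2.87% of 8842 genes were. Foxo1 stood at 333 and 275 CPM in the libraries without AMH and at 542 and 646 CPM in those with it, with no overlap. The ratios were 0.96 (0.90 to 1.01) in AMH / control and 0.98 (0.91 to 1.05) in doxorubicin+AMH / doxorubicin. Pik3ip1 stood at 23.0, 18.5, 31.4 and 54.2 CPM, highest in the AMH library, with ratios of 1.24 (1.02 to 1.45) and 0.77 (0.47 to 1.06). Thinned to 2000 UMIs, 39.9%, 32.8%, 60.4% and 59.6% of the subset had a Foxo1 UMI. None was past it in both doxorubicin pairs there (0.713%).

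In the other subsets 1 member was past the fold in both pairs of a contrast. It was Tsc2 in the low-UMI cells, downward with AMH, at 14.9, 18.2, 6.81 and 10.4 CPM, where 2.1% of genes were, and the interval of its AMH / control ratio of −0.52 ran from −1.54 to 0.59. For doxorubicin, 0 of 9 members were past it in the Shroom3 and Kcnq5 (0.15% of genes), Slc38a5 (0.201%), Inhba and Nppc (0.278%), proliferating (0.276%) and low-UMI subsets (3.47%). For AMH, 0 of 9 were past it in the first 4 of these, where 1.35%, 1.39%, 2.12% and 3.06% of genes were.

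The genes that define the Gatm and Kctd14 subset differed between the same libraries. Kctd14 held 748, 809, 156 and 109.6 CPM and Gatm 253, 229, 283 and 386 CPM. Inhba, an activin subunit gene that marks another subset, held 71.5, 91.5, 212 and 259 CPM. A difference within the same cells and a difference in which cells the clusters hold cannot be told apart here. Among granulosa-like cells with at least 3 Gatm UMIs, whatever their cluster (224 to 294 cells a library), the Foxo1 ratios were 0.91 and 1.11 and those of Pik3ip1 0.91 and 0.78. In that gate Kctd14 differed by −2.88 and −2.42 and Inhba by 3.16 and 2.50. Within the larger cluster of the subset alone, Foxo1 gave 0.96 and 0.90.

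**Figure D4:**
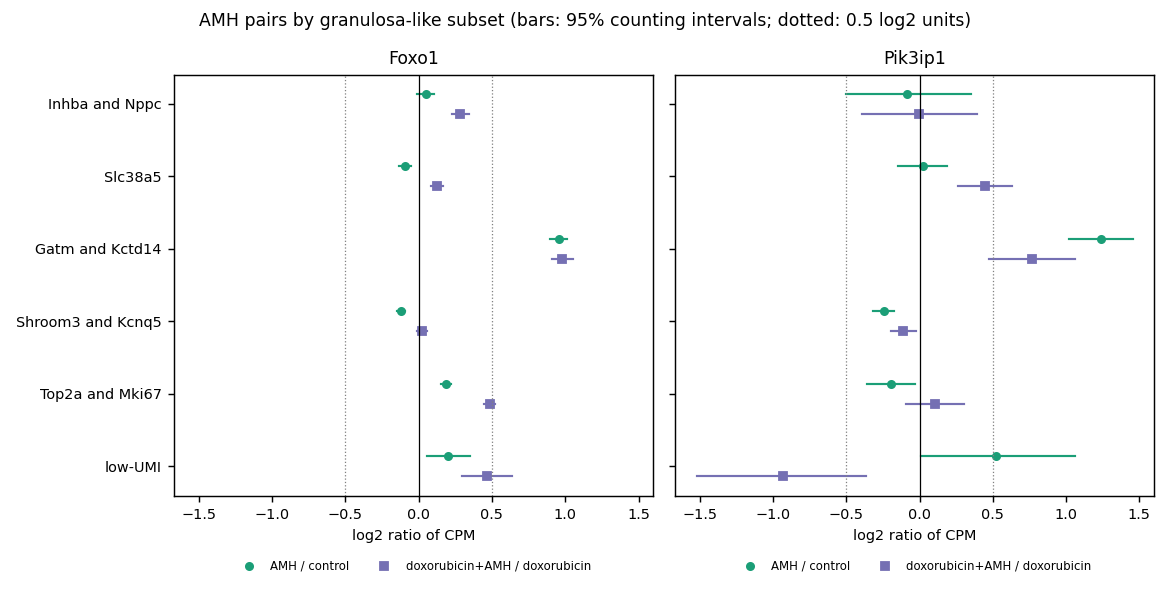
Log2 ratios of CPM in the AMH pairs for Foxo1 and Pik3ip1 in 6 granulosa-like subsets, with bars for the 95% counting interval and dotted lines at 0.5 log2 units. Both genes are past the line in both pairs in the Gatm and Kctd14 subset, and in no other subset are both points of a gene past it in the same direction.

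In theca-like cells, which make androgens, 3 of the 8 members that passed the mean were past the fold downward in both AMH pairs, where 8.86% of 8589 genes were. Irs1 stood at 153 and 147 CPM in the libraries without AMH against 82.1 and 80.9 CPM with it. Its ratios were −0.92 (−1.01 to −0.83) in AMH / control and −0.84 (−0.94 to −0.75) in doxorubicin+AMH / doxorubicin. Akt1, at the levels given above, had ratios of −0.79 (−0.90 to −0.68) and −0.68 (−0.79 to −0.57).

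Akt2 had −0.56 (−0.68 to −0.44) and −0.54 (−0.67 to −0.41), and under median-of-ratios scaling both were −0.49, short of the fold. Of the 8 members, 5 lay below 0 in both AMH pairs, these 3 with Foxo1 (101, 122, 88.2 and 92.0 CPM) and Foxo3 (74.4, 93.9, 44.9 and 62.4 CPM). The other 3, Tsc1, Tsc2 and Irs2, lay above 0 in both. No share of all genes stands beside these counts, so they describe the members only. No member was past the fold in both doxorubicin pairs, where 0.105% of genes were. Foxo3 was highest in the doxorubicin library and lowest with doxorubicin+AMH, at −1.07 (−1.19 to −0.94) between them, but only −0.25 in AMH / control.

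The theca-like clusters held different shares of the libraries. The cluster led by Lhcgr had 36, 28, 557 and 728 cells, the larger of those led by Cyp17a1 had 666, 428, 51 and 56, and the smaller had 132, 133, 122 and 118. The 8 theca markers, all detected in each library, summed to 17911, 17273, 7325 and 6505 CPM. In the smaller Cyp17a1-led cluster, the even one, the Akt1 level was 104, 118, 99.8 and 90.9 CPM, with ratios of −0.20 and −0.25. Akt2 there gave −0.16 and −0.25, and Irs1 −0.35 and −0.12, so none reached the fold. Foxo1 and Foxo3 were not below 0 in both pairs in that cluster, with Foxo1 at 102, 131, 133 and 130.4 CPM (ratios of 0.36 and 0.02) and Foxo3 at 43.5, 57.7, 39.0 and 58.1 CPM (0.42 and −0.56). In the larger Cyp17a1-led cluster Irs1 was past the fold at −0.91 and −0.50, while Akt1 gave −0.34 and −0.18. Foxo3 (79.2, 99.8, 37.3 and 51.7 CPM) and Irs2 (56.5, 61.5, 27.2 and 33.4 CPM) also stood lower there in both libraries with AMH, of 51 and 56 cells, and Pik3ip1 did not. In the Lhcgr-led cluster Akt1 was past the fold at −0.77 and −0.82, with only 36 and 28 cells in the libraries without AMH.

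Of 48 pathway genes that passed in theca-like cells, 8 were past the fold in both AMH pairs, where 15.8% of all genes were, a share close to the list's. Among those upward were Kitl, the KIT ligand gene (351, 357, 552 and 602 CPM), and Igf1 (4.37, 8.17, 17.7 and 17.4 CPM), which reached the required mean only through the libraries with AMH and so had to differ. Downward were Kit, the receptor of that ligand (253, 207, 61.6 and 67.8 CPM), Mtor (45.6, 42.7, 29.7 and 30.0 CPM), the AMPK subunit gene Prkaa2 (20.3, 20.6, 13.3 and 13.2 CPM), and the FOXO targets Sod2 (148, 156, 106 and 93.1 CPM) and Pdk4 (31.0, 27.3, 10.9 and 12.6 CPM). The unequal cluster makeup given above applies to these 7 genes too.

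**Figure D5:**
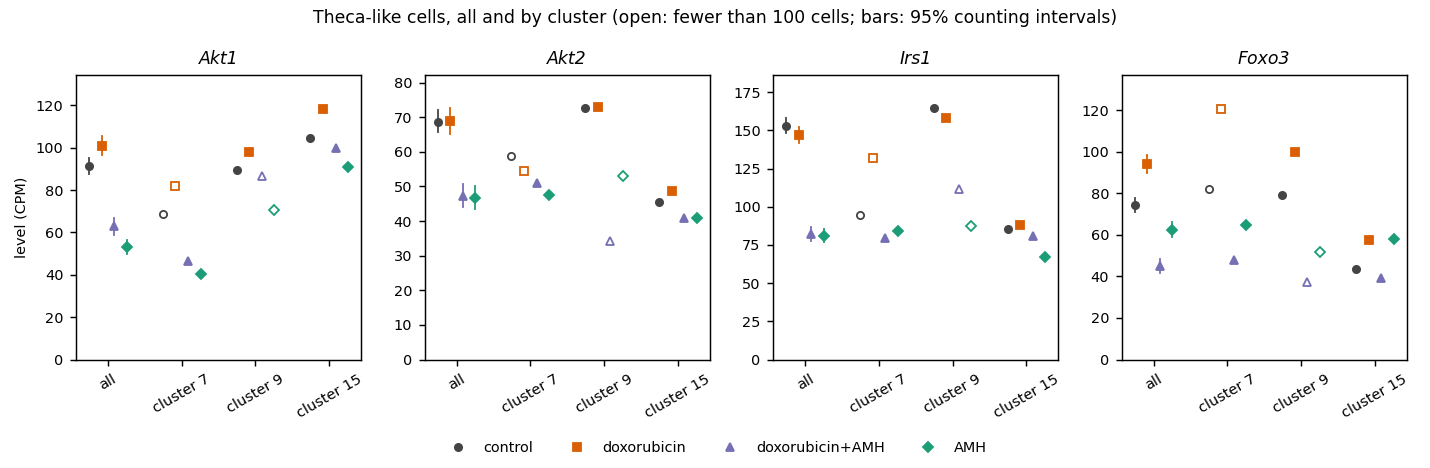
Akt1, Akt2, Irs1 and Foxo3 levels (CPM, linear axis from 0) by library in all theca-like cells, with bars for the 95% counting interval, and in the clusters led by Lhcgr (cluster 7) and by Cyp17a1 (9, the larger, and 15, the smaller), without bars and with open symbols for fewer than 100 cells. For Akt1, Akt2 and Irs1 the 2 libraries with AMH lie below the 2 without over all cells, and in cluster 15, with 118 to 133 cells a library, the libraries lie closer together.

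In stroma-like cells 0 of 9 members were past the fold in either contrast, where 0.263% of genes were in the doxorubicin pairs and 0.766% in the AMH pairs. Foxo3 stood at 55.5, 71.1, 58.9 and 64.8 CPM, with a ratio of 0.36 in doxorubicin / control against −0.14 in doxorubicin+AMH / AMH. The difference was larger in clusters singled out after their values were seen. In the Dpt-led cluster (302, 204, 136 and 268 cells) Foxo3 stood at 69.9, 133, 73.3 and 75.8 CPM, with 0.93 (0.70 to 1.16) in doxorubicin / control and −0.05 (−0.39 to 0.28) in doxorubicin+AMH / AMH. In the Enpep-led proliferating cluster it stood at 23.4, 46.4, 32.5 and 31.8 CPM. The doxorubicin library alone was high for Foxo3 in both clusters.

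The Myh11- and Acta2-led cells had 0 of 9 members past the fold in both doxorubicin pairs (2.04% of genes) and 0 in both AMH pairs (0.603%). Of 45 pathway genes that passed there, 3 were past the fold downward in both doxorubicin pairs, where 1.65% of genes were. They were Igf1 (146, 87.5, 94.4 and 233 CPM), Pik3r1 (125, 79.6, 64.2 and 103 CPM) and the FOXO target Fbxo32, a ubiquitin ligase gene (173, 110.3, 111 and 166 CPM). The Des-led cluster of these cells held 202, 22, 57 and 187 cells, fewer in the same libraries, and its part in the result was not tested. Macrophage-like cells had 0 of 7 (6.12% and 5.84%) and blood endothelial-like cells 0 of 9 (2.26% and 5.64%). Single values in the AMH library stood apart in these smaller classes. Foxo1 in macrophage-like cells was 50.1, 37.8, 42.5 and 119 CPM, with 1.25 (0.87 to 1.65) in AMH / control. The granulosa markers in those cells summed to 172, 277, 349.5 and 429.8 CPM and the stroma markers to 269, 214, 115 and 464 CPM, highest in the same library, as was Foxo1 in erythroid-like cells at 174 CPM, and their part in the result was not tested.

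Irs1 in blood endothelial-like cells was 5.84, 9.0, 2.99 and 22.2 CPM, with 1.93 (1.18 to 2.73) in AMH / control, and Irs2 was 14.0, 16.3, 16.9 and 37.7 CPM. Irs1 reached the required mean of 10 CPM only through the AMH library, so its high ratio there supports nothing. The stroma markers there summed to 151, 98.5, 165 and 821 CPM and the mural markers to 497, 527, 765 and 1476 CPM, again highest with AMH, and their part was not tested. In mural smooth muscle-like cells (67 to 113 cells a library) 0 of 9 members were past the fold in both doxorubicin pairs (4.79% of genes), and 2 of 9 members were past the fold upward in both AMH pairs, where 3.33% of genes were. Foxo1 held 49.5, 48.6, 124 and 88.2 CPM, with ratios of 0.83 (0.25 to 1.41) and 1.35 (0.80 to 1.92). Pik3ip1 held 11, 12.4, 23.5 and 20.8 CPM, and both of its intervals included 0. With the class set by a marker gate on each cell, both calls were lost. Foxo1 then gave 0.017 in AMH / control and −0.073 in doxorubicin+AMH / doxorubicin, and Pik3ip1 gave 0.29 and −0.11. In erythroid-like cells, the background class (41 to 75 cells a library), Foxo1 stood at 18.0, 76.6, 124 and 174 CPM, close to or above the mural level in every library but control. The granulosa markers in these cells summed to 292, 251, 847 and 714 CPM, higher in the same libraries, with Cyp19a1 at 0 in 3 of 4 libraries, and their part was not tested.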

How the data were processed

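Single cells from 4 pooled mouse ovary samples were counted in droplet libraries of 3′ transcript ends. The deposited matrices hold raw UMI counts per gene and cell, from Cell Ranger 7.0.0 per the file headers, with no normalization. The submitters' processing notes list R 4.2.0, Seurat 4.1.0 and mm10. Whether intronic reads or strand entered the counts is not given in the sources used here.

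Cells needed 1000 UMIs or more and a mitochondrial share of 20% or less. Scrublet (scanpy 1.11.5) scored doublets, and the top scores were dropped at 0.8% per 1000 cells (632, 366, 437 and 648 cells, in the order of the report). The automatic threshold marked 0, 1, 0 and 0 cells and was not used. This left 7956, 6040, 6546 and 7898 cells. The libraries were clustered jointly on 2000 variable genes, with the members and pathway genes left out, using 30 principal components, 20 neighbours and Leiden clustering at resolution 1.0 (leidenalg 0.10.2), which gave 33 clusters. A cluster was named where at least 3 markers and 60% of a list lay 1 log2 unit above the median cluster in at least 10% of its cells, and subsets were gated at a z of 1. Low-UMI clusters lay under 33.3% of the library's median. Classes needed 50 cells in every library.

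UMIs were summed per class and library (numpy 2.4.6, scipy 1.17.1), with exact Poisson intervals for levels and exact conditional binomial intervals for ratios, at 95%. These cover counting error only, and deeper classes have narrower intervals. The ratio step and its interval were tested on simulated library counts, without simulated cells or classes. Gene positions are from GENCODE (GRCm38) and promoter sequences from RefSeq (GRCm38.p6), where all 9 members matched.

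All 9 members were given in every class compared. Pathway genes were named where past the fold in both pairs of a contrast in granulosa-like cells, and 3 genes of most alike pattern were named per member. Those named otherwise were chosen after their values were seen, and a few genes are not reported here. The members and lists were chosen with earlier results of these data known, and the naming and subset thresholds were set after seeing the data. Alternatives changed 1 choice at a time: the mitochondrial limit, the UMI minimum, doublet removal, the weight of a cell, the scaling, the class rule, the pseudocount, the CPM filter, and clusters held over 80% by 1 library. The Gatm gate, the single clusters, and the counts of members below 0 in granulosa-like cells and past the fold in theca-like and Gatm and Kctd14 cells were added after seeing the data.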

Additional observations from a re-analysis of the deposited data

How the results depend on the processing

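Of 4152 recomputed ratios, 3921 stayed within their tolerance, 216 moved beyond it and 15 that had been past the fold in their pair changed sign. Changes of sign among smaller ratios are not in that 15, such as those of Foxo1 and Foxo3 in the smaller Cyp17a1-led theca-like cluster. The 3921 includes values fixed in advance. A CPM filter only selects genes, so the 364 ratios with a mean of at least 20 CPM could not change. Nor could the 432 with no filter. Leaving out clusters held nearly whole by 1 library could change only granulosa-like ratios. The share that stayed therefore overstates stability. Within single theca-like clusters, 12 of 36 ratios stayed in the Lhcgr-led one. In the larger and smaller Cyp17a1-led ones, 18 of 36 and 15 of 36 stayed. The count of members past the fold in both pairs stayed 0 in granulosa-like cells under every alternative run, for doxorubicin and for AMH. The pathway count in both AMH pairs went from 1 to 0 under median-of-ratios scaling, a pseudocount of 5 CPM and a mean of at least 20 CPM, and to 2 with no filter on low CPM (Pik3cd and Pik3cg). The pathway count in both doxorubicin pairs went from 0 to 1 with no filter (Pik3cg). The cause of these changes in count was not tested. The theca-like count was 2 or 3 and the Gatm and Kctd14 count was 2 under the alternatives for which they were recomputed. The Gatm gate and single clusters gave ratios only, and the marker gate gave no subsets. With doublets left in, Pik3ip1 in macrophage-like cells gave −0.076 in AMH / control and Irs2 in blood endothelial-like cells 0.25 in doxorubicin+AMH / AMH. With each cell weighted equally, macrophage-like cells gave −0.016 for Irs1 in AMH / control. Pik3ip1 there gave 0.17 in doxorubicin+AMH / AMH, and against doxorubicin alone 0.32. Blood endothelial-like cells gave, for Irs1, −0.52 in doxorubicin / control and 0.00165 in doxorubicin+AMH / doxorubicin. With classes set by a marker gate on each cell, blood endothelial-like cells gave 0.30 for Akt2 in doxorubicin+AMH / AMH, and for Irs1 0.084 in that pair and 0.18 in doxorubicin+AMH / doxorubicin. Mural smooth muscle-like cells gave, in doxorubicin+AMH / doxorubicin, −0.073 for Foxo1 and −0.11 for Pik3ip1, and in doxorubicin+AMH / AMH −0.30 for Foxo3 and 0.0499 for Akt1. In the Lhcgr-led theca-like cluster alone, Pik3ip1 gave −0.45 in AMH / control. The cause of each change of sign was not tested. No paired analysis was possible because each group has 1 library. The macrophage-like, blood endothelial-like and mural smooth muscle-like classes hold 331 to 556 cells each, so their counting intervals limit what can be read from them, and 14 of these 15 sign changes lie in them.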
